A study of Mus musculus with 12 samples.

Results

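The chemokine family was followed as the genes whose platform symbol begins with Ccl, Cxcl, Cx3cl, Ccr, Cxcr or Cx3cr and a number, which gave 47 of the 12393 genes measured, 31 ligands and 16 receptors. Of the ligands, 18 were of the CC class, 12 of the CXC class and 1 of the CX3C class. The receptors divided into 10 for CC, 5 for CXC and 1 for CX3C ligands. Each gene was read by the probe set with the highest mean log2(signal + 16) over the 12 arrays. The choice used brightness and no difference between groups.

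The study compared fibroblasts from the fat of mice that carry a GFP transgene named for Zfp423, a zinc-finger transcriptional regulator of preadipocyte commitment. Stromal vascular cells (the non-adipocyte fraction of fat) of inguinal fat, a subcutaneous depot, or of epididymal fat, a visceral depot, were cultured and sorted by GFP, and both sorted fractions were grown again. Affymetrix arrays then measured RNA from 4 groups of 3 arrays each, the GFP+ and the GFP- cells of either depot. All 4 groups came from male mice aged 6 to 8 weeks with the genotype Zfp423-GFP transgenic on an FVB and C57BL/6 background, so the GFP- cells carried the transgene too. Every group was kept in DMEM/F12 with fetal bovine serum and collected while still proliferating, with no inducing agent named. The genomic elements that drive the transgene and the number of animals behind a culture are not given in the sources used here. No label says that the 3 arrays of a group came from separate animals or sorts, so the p-values here measure only how far these arrays scatter, and that scatter may be technical. The number of arrays limits the precision of every value.

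Chemokines are small secreted proteins that guide cells along concentration gradients, held on heparan sulphate of cell surfaces and matrix. Their receptors couple to inhibitory G proteins, and most sit on leukocytes. CC ligands chiefly draw monocytes, macrophages, eosinophils and lymphocytes, while the CXC ligands include neutrophil attractants and the progenitor-retaining factor Cxcl12. In fat, stromal fibroblasts are a known source of ligands such as Ccl2, and the resident macrophages carry many of the receptors.

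Signals were linear probe set values, with array medians between 347.3 and 371.2. The background of each group was taken as the 95th percentile of 66 olfactory, vomeronasal and taste receptor genes, which gave a signal of 64.7 in inguinal GFP+, 56.7 in inguinal GFP-, 73.3 in epididymal GFP+ and 76.8 in epididymal GFP- cells. Of 10 measured fibroblast markers 8 were above background in each group, among them Pdgfra and Dcn with lowest group means of 4627 and 2717. Pi16 was near background in all 4 groups, Cd34 in all but epididymal GFP- cells and Dpt in epididymal GFP- cells, while Lum ranged from 122 in inguinal GFP- to 2396 in epididymal GFP+ cells. Zfp423 itself had a mean of 124 in inguinal GFP+ against 57.4 in inguinal GFP- cells, and of 242 against 29.4 in the epididymal fractions. Of 22 listed macrophage and leukocyte markers 20 were measured, and their summed signal ran from 11798 to 13883 in inguinal GFP- cells against 2456 to 4116 over the 9 other arrays. Ptprc, the pan-leukocyte surface antigen, and the complement genes C1qa, C1qb and C1qc were near background in every group but inguinal GFP-. Of the 20 markers, 6 were near background in inguinal GFP-, 14 in inguinal GFP+, 13 in epididymal GFP+ and 11 in epididymal GFP- cells. Adgre1 was highest in epididymal GFP+ cells, at 542 against 347 in inguinal GFP- cells, as was Laptm5, at 323 against 318. Cd14 was highest in epididymal GFP- cells, at 784 against 691 in inguinal GFP- cells. A list of 12 measured mesothelial markers summed to between 45869.8 and 47869.5 in epididymal GFP- cells, 9989.9 to 10397 in epididymal GFP+ cells and 2447 to 2819 in both inguinal groups. Krt19 went the other way between the depots, at 1292 and 1186 in inguinal GFP+ and GFP- cells against 191 and 216 in the epididymal fractions. Krt7 was higher in inguinal GFP+ cells, at 564, than in epididymal GFP+ cells, at 56.1, but was highest in epididymal GFP- cells, at 1830. In such bulk RNA, fewer cells of a type and less RNA per cell cannot be told apart.

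Of the 47 genes, 26 lay above background in at least 1 group and 12 in all 4. The 26 comprised 13 CC ligands, 7 CXC ligands, Cx3cl1 and 5 receptors, Ccr1, Ccr6, Cxcr4, Cxcr6 and Cx3cr1. The other 21 were near background everywhere, with group means from 1.00 to 72.3 and a median of 20.4. They included the interferon-induced Cxcr3 ligands Cxcl9, Cxcl10 and Cxcl11, the neutrophil attractant Cxcl2, and the macrophage and T cell products Ccl3 and Ccl5. Ccl1, Ccl24, Ccl28 and Cxcl15 were the other ligands of that group. Its 11 receptors were Ccr1l1, Ccr2, Ccr3, Ccr4, Ccr7, Ccr8, Ccr9, Ccr10, Cxcr2, Cxcr3 and Cxcr5. With the 30th percentile of all gene means as the level instead, 22 genes were near background. A signal near background puts no gene at 0, and it bounds the level only from above.

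**Figure D1:**
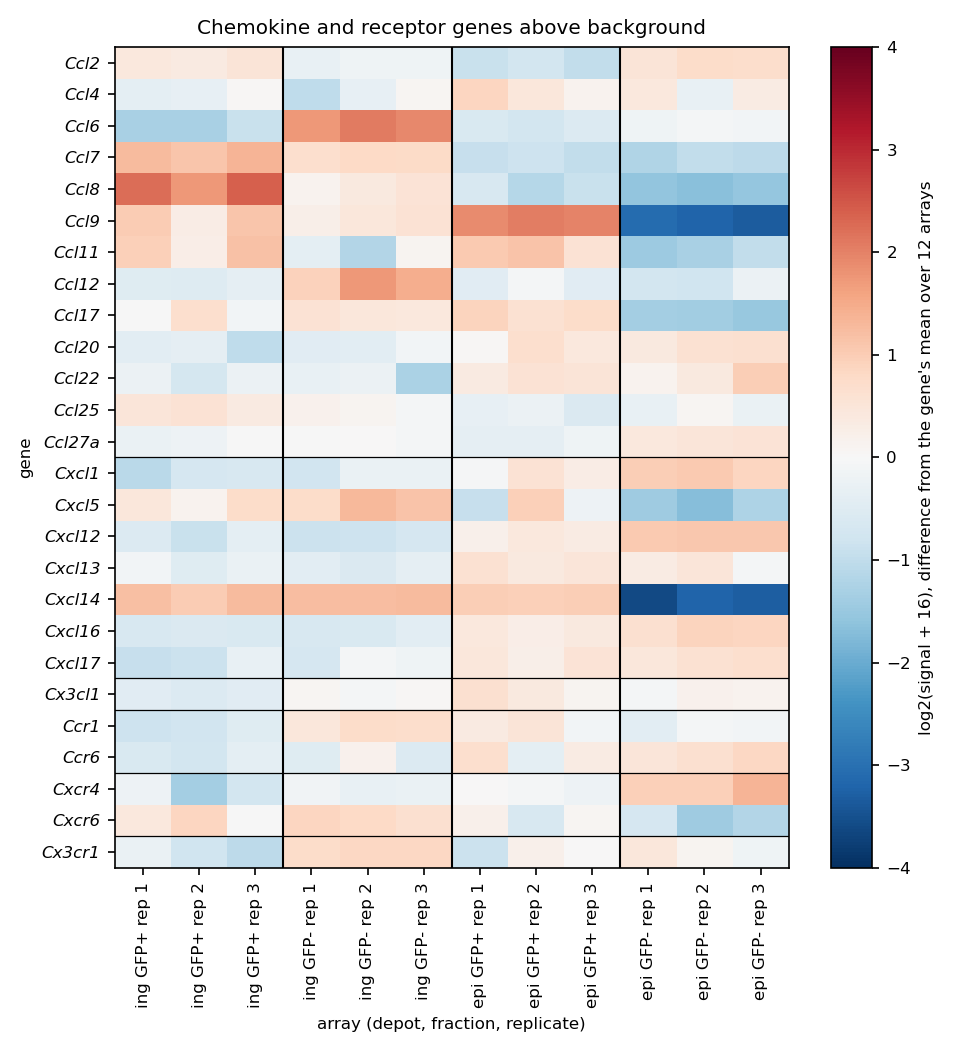
Heat map of the 26 genes above background in at least 1 group (rows) over the 12 arrays (columns), coloured by log2(signal + 16) minus the gene's mean over all arrays, with lines between groups and between classes. The deepest blue cells are those of Ccl9 and Cxcl14 in the 3 epididymal GFP- arrays, and the row of Ccl8 is red in the 3 inguinal GFP+ arrays, that of Ccl6 in the 3 inguinal GFP- arrays.

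Each comparison was tested with limma on log2(signal + 16) over all 12393 genes, and a gene is called higher or lower where the Benjamini-Hochberg adjusted p was under 0.05. Between inguinal GFP+ and inguinal GFP- cells 10 of the 47 were called, 4 higher and 6 lower in GFP+, against 12.6% of all genes called, 5.26% higher and 7.29% lower. Median centring of the arrays changed the split over all genes from 652 higher and 904 lower to 1056 and 665, while the members then split 5 and 5. Between the epididymal fractions 18 were called, 10 higher and 8 lower in GFP+, against 41.9% of all genes, 21.5% higher and 20.3% lower. Median centring gave 8 and 8 members and turned the split over all genes from 2668 higher and 2519 lower to 2306 and 2959. Inguinal against epididymal GFP+ cells gave 23 calls, 6 higher and 17 lower in inguinal cells, against 50.8% of all genes, 23.6% higher and 27.2% lower. With quantile normalization that split was 8 higher and 11 lower, and over all genes 3121 and 2897, against 2922 and 3370 before. With median centring it was 6 and 15, and over all genes 3837 and 2604. Inguinal against epididymal GFP- cells gave 24 calls, 13 higher and 11 lower, against 53.7% of all genes, 27.4% higher and 26.3% lower. The members' shares of 21.3%, 38.3%, 48.9% and 51.1% thus lay above the share of all genes in the inguinal comparison and near or below it in the other 3. These 4 comparisons share groups, so their calls are not independent of each other.

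The median log2 difference over the 47 genes was -0.12 for inguinal GFP against -0.011 over all genes, 0.055 for epididymal GFP against 0.011, -0.29 for the depots in GFP+ cells against -0.041, and -0.075 for the depots in GFP- cells against -0.018. The interaction, which is the inguinal minus the epididymal GFP difference, was called for 18 members, 7 above 0 and 11 below, against 34.8% of all genes, 16.1% above and 18.7% below. With median centring the members' split stayed at 7 and 11, while over all genes 2000 above and 2313 below became 2704 and 1772. Its median was -0.093 over the members and -0.024 over all genes. Ligands gave 14 of these 18 calls and receptors 4. For 8 of the 18 at least 1 group was below background, so that their fitted interactions are differences in measured signal with no exact size. For inguinal GFP 7 of the 31 ligands and 3 of the 16 receptors were called, and for epididymal GFP 15 and 3.

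Of the 47 genes, 6 were called in both GFP comparisons. Ccl7, Ccl8 and Ccl11 were higher in GFP+ cells of both depots, as were 2.3% of all genes, and Ccl6 was lower in both, as were 2.7%. Ccl2 was higher in inguinal and lower in epididymal GFP+ cells, as were 1.66% of all genes, and Cx3cl1 had the opposite signs, as had 2.4%. A further 4 were called lower in inguinal GFP+ cells with no epididymal call (Ccl12, Ccr1, Ccr2, Cx3cr1). With no inguinal call, 6 were lower in epididymal GFP+ cells (Ccl5, Ccl27a, Cxcl1, Cxcl12, Cxcl16, Cxcr4) and 6 were higher there (Ccl9, Ccl17, Ccr7, Cxcl5, Cxcl14, Cxcr6). For 25 neither comparison was called. The shares of all genes with these 1-depot patterns were not counted. Whatever the call in the other depot, 7.29% of all genes were lower in inguinal GFP+ cells. That share includes the 2.7% also lower and the 2.4% higher in epididymal GFP+ cells, so the share with no epididymal call is smaller. In epididymal GFP+ cells 20.3% were lower, including the 2.7% lower and 1.66% higher in inguinal GFP+ cells. The 21.5% higher there include the 2.3% higher and 2.4% lower in inguinal GFP+ cells. Beside these upper limits the 6 and 6 members do not stand out. A call in 1 depot and none in the other does not show that the depots differ, which is what the interaction tests. Beside all 18 epididymal calls stands the mesothelial marker list, of which 11 of 12 were called lower and 0 higher in epididymal GFP+ cells. Of the 20 leukocyte markers 8 were called lower and 1 higher there, and of 12 mural cell markers 3 lower and 5 higher. The part of these lists in the calls was not tested.

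**Figure D2:**
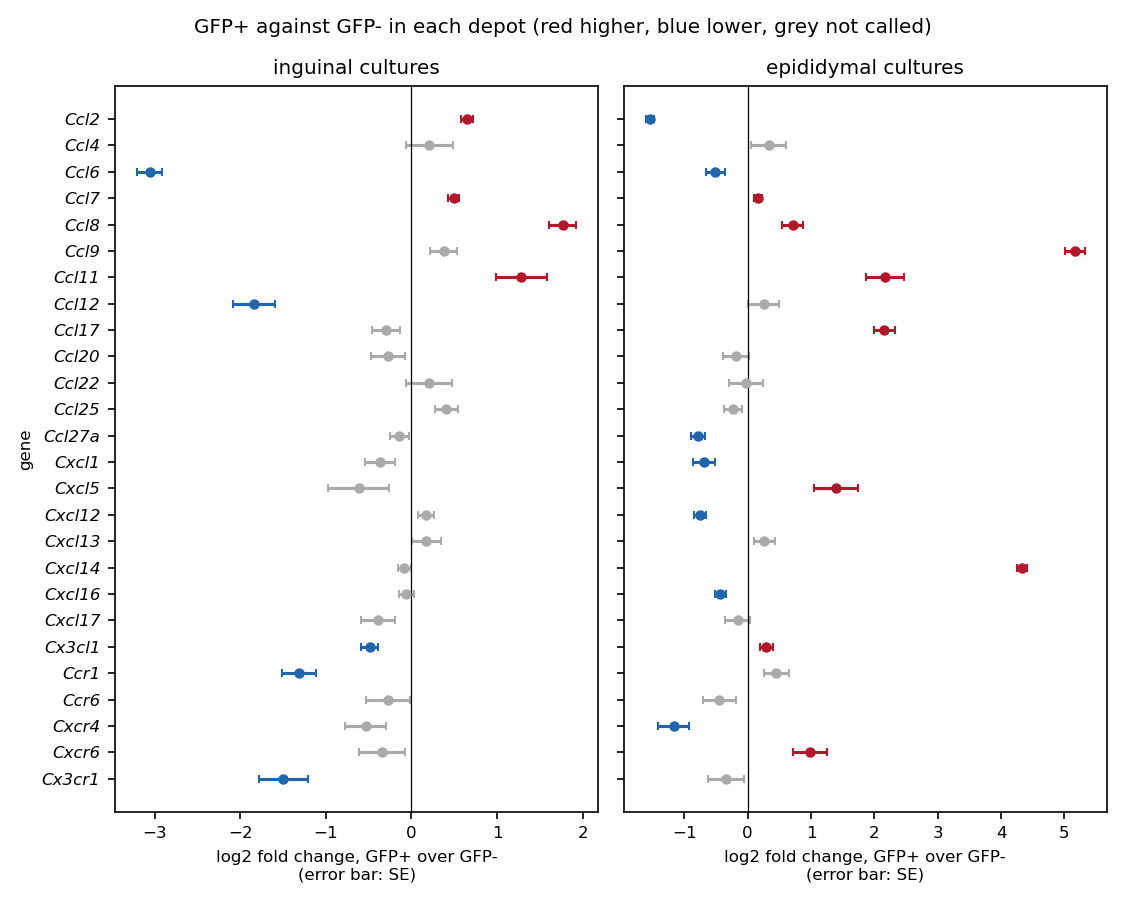
Log2 difference between GFP+ and GFP- cells, with its standard error, for the 26 genes above background, in inguinal cultures (left) and epididymal cultures (right), from 3 arrays per group. Red points were called higher in GFP+ cells, blue lower and grey were not called. The values are fitted from measured signals and have no exact size where a group was below background. Ccl9 and Cxcl14 lie furthest right in the epididymal panel at 5.17 and 4.34, and Ccl6 lies furthest left in the inguinal panel at -3.06.

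The monocyte chemoattractant genes Ccl2 and Ccl7, the CC ligand gene Ccl8 and the eosinophil attractant Ccl11 were each higher in inguinal GFP+ than in inguinal GFP- cells. These genes ordered the 4 groups differently. Ccl2, the main fibroblast-derived attractant of Ccr2-bearing monocytes, read 3008, 2850.2 and 3201 in inguinal GFP+, 1797, 1958 and 1987 in inguinal GFP-, 1178, 1314 and 1102 in epididymal GFP+ and 3182, 3738 and 3637 in epididymal GFP- arrays. The inguinal GFP+ and epididymal GFP- arrays were the highest, and their ranges overlapped between 3182 and 3201, while the inguinal GFP- arrays and then the epididymal GFP+ arrays lay lower and apart. Its log2 GFP difference was 0.65 ± 0.069 (SE) in inguinal cultures (adjusted p = 7.02e-06) and -1.54 ± 0.069 in epididymal cultures (adjusted p = 2.41e-11). The interaction was 2.20 ± 0.10 (adjusted p = 4.94e-11), and the sign of the Ccl2 difference turned between the depots. Among GFP+ cells Ccl2 was 1.32 ± 0.069 higher in inguinal cultures on the log2 scale, and among GFP- cells the inguinal minus epididymal difference was -0.87 ± 0.069.

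Ccl7, a close relative of Ccl2 that also acts on Ccr2, followed the depot instead. Its signal was 7407, 6588 and 7874 in inguinal GFP+ and 4856, 5351 and 5269 in inguinal GFP- arrays, against 1599, 1718 and 1553 in epididymal GFP+ and 1335, 1539 and 1462 in epididymal GFP- arrays. Every inguinal array exceeded every epididymal one. The log2 depot difference was 2.15 ± 0.064 in GFP+ cells and 1.83 ± 0.064 in GFP- cells (adjusted p = 4.03e-13 and 6.71e-13). The GFP difference was 0.49 ± 0.064 in inguinal cultures (adjusted p = 5.43e-05) and 0.17 ± 0.064 in epididymal cultures (adjusted p = 0.0484). The epididymal call was lost in 13 of 22 alternative settings, with adjusted p then between 0.0501 and 0.22. Among them were the removal of epididymal GFP+ replicate 1 or 2, epididymal GFP- replicate 1 or 3, inguinal GFP+ replicate 1 and inguinal GFP- replicate 2 or 3. The interaction of 0.33 ± 0.091 was called at 0.00991.

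Ccl8, a CC ligand of the same gene cluster, had its highest readings in inguinal GFP+ cells, where the arrays read 1269, 897 and 1409. The inguinal GFP- arrays read 287, 337 and 382, the epididymal GFP+ arrays 158, 108 and 130.1 and the epididymal GFP- arrays 75.7, 68.5 and 77.2. These 4 ranges did not overlap, and the mean of the lowest group was below its background. The log2 GFP difference was 1.77 ± 0.16 in inguinal cultures (adjusted p = 1.41e-06). In epididymal cultures GFP+ cells were at least 1.58-fold higher (adjusted p = 0.00188), and the interaction of the measured signals was called (fitted 1.06 ± 0.23, adjusted p = 0.00162), with the true gap unknown because 1 of the 4 groups was below background. Such a bound sets the brighter group against the background level of the dimmer one, since a signal below background is known only from above. Between depots Ccl8 differed by 3.02 ± 0.16 in GFP+ cells and was at least 3.76-fold higher in inguinal than in epididymal GFP- cells.

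Ccl11, or eotaxin, whose receptor is Ccr3, read 169, 97.0 and 199 in inguinal GFP+ and 180.4, 195 and 126 in epididymal GFP+ arrays. The GFP- arrays read 56.8, 26.3 and 85.4 in inguinal and 18.3, 23.0 and 32.2 in epididymal cultures, so the GFP+ arrays were above the GFP- arrays in each depot. The GFP- means were below background in both depots. Ccl11 was at least 2.27-fold higher in inguinal GFP+ cells (fitted log2 difference 1.28 ± 0.30, adjusted p = 0.00825) and at least 1.95-fold higher in epididymal GFP+ cells (fitted 2.17 ± 0.30, adjusted p = 1.64e-05). The interaction of -0.89 ± 0.42 did not pass (adjusted p = 0.124, 95% confidence interval -1.78 to 0.0097), but it passed at 0.0202 without inguinal GFP- replicate 2. In GFP+ cells the depots differed by -0.13 ± 0.30 (adjusted p = 0.751, interval -0.76 to 0.50). A depot difference in GFP- cells, both below background, of 0.76 ± 0.30 in measured signal was called at 0.0425 and lost in 10 of 22 settings with adjusted p up to 0.221. Among them were the removal of inguinal GFP- replicate 1 or 3, epididymal GFP- replicate 1 or 2, inguinal GFP+ replicate 1 and epididymal GFP+ replicate 1 or 2.

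Ccl12, a further ligand of Ccr2 in the mouse, was above background in 1 group. The inguinal GFP- arrays read 59.9, 117 and 93.5, against 12.6, 11.6 and 14.7 in inguinal GFP+, 12.7, 21.7 and 12.7 in epididymal GFP+ and 8.02, 6.72 and 17.6 in epididymal GFP- arrays. All 3 inguinal GFP- arrays were above the other 9. Inguinal GFP- cells were at least 1.28-fold above inguinal GFP+ cells (fitted log2 difference -1.84 ± 0.24, adjusted p = 7.12e-05). Between the epididymal fractions the difference was 0.25 ± 0.24 (adjusted p = 0.463) with both groups near background, and the fitted interaction, with 3 of the 4 groups below background, was -2.09 ± 0.35 (adjusted p = 0.000159). That group is also the one with the high leukocyte marker sum, whose part in the Ccl12 reading was not tested.

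**Figure D3:**
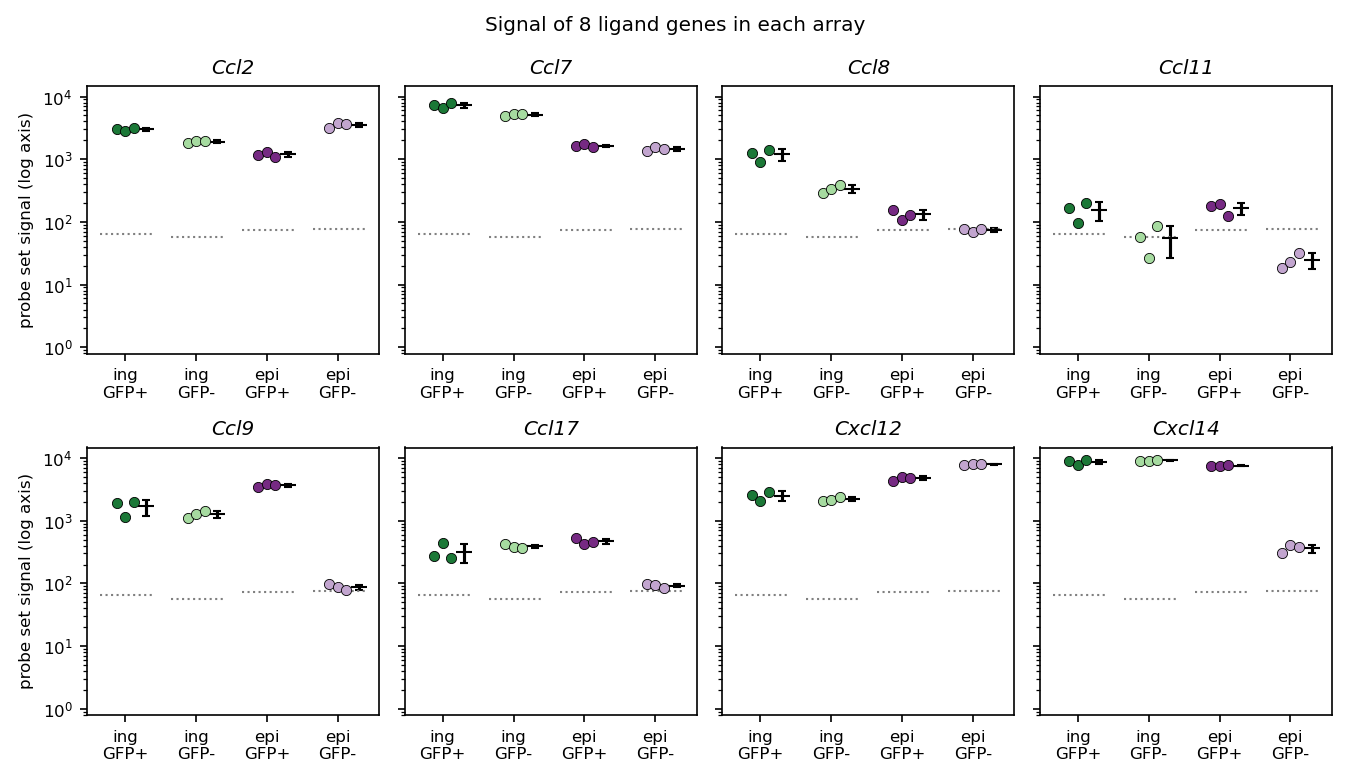
Signal of 8 ligand genes in each array on a log axis, by group (ing, inguinal; epi, epididymal), with the mean and SD of 3 arrays to the right of the points and the group's background level as a dotted line. Ccl2 falls from GFP- to GFP+ cells in epididymal cultures and rises in inguinal ones, Ccl7 splits by depot, and Ccl9, Ccl17 and Cxcl14 are lowest in epididymal GFP- cells.

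Ccl9 and Ccl6, neighbouring mouse genes for ligands of Ccr1 that attract monocytes and other myeloid cells, differed in opposite directions between the epididymal fractions. Ccl9 read 1917, 1138 and 2014 in inguinal GFP+, 1096, 1292 and 1405 in inguinal GFP-, 3496, 3867 and 3697 in epididymal GFP+ and 96.1, 86.7 and 78.3 in epididymal GFP- arrays. The epididymal GFP- arrays were just above background and the epididymal GFP+ arrays the highest of all. The log2 GFP difference in epididymal cultures was 5.17 ± 0.16 (adjusted p = 1.89e-13), the largest among the 47 genes in that comparison. In inguinal cultures it was 0.38 ± 0.16 (adjusted p = 0.148), which passed at 0.000138 without inguinal GFP+ replicate 2, the lowest array of its group. The interaction was -4.79 ± 0.22 (adjusted p = 7.36e-11). A second Ccl9 probe set gave 5.28 in epididymal and 0.23 in inguinal cultures. The inguinal minus epididymal difference was -1.16 ± 0.16 in GFP+ and 3.63 ± 0.16 in GFP- cells (adjusted p = 1.37e-05 and 8.68e-12), so the depots differed in opposite directions in the fractions.

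Ccl6 read 451, 573 and 514 in inguinal GFP- arrays and 41.3, 41.5 and 60.1 in inguinal GFP+ arrays, which were below background. The epididymal GFP+ arrays read 76.9, 68.0 and 79.8 and the epididymal GFP- arrays 109, 117 and 114. All 4 groups were apart, with inguinal GFP- cells the highest. Inguinal GFP- cells were at least 6.52-fold above inguinal GFP+ cells (fitted log2 difference -3.06 ± 0.15, adjusted p = 1.14e-09). The epididymal difference was -0.51 ± 0.15 (adjusted p = 0.0102), and 0.226 with the mean of both Ccl6 probe sets. The interaction was fitted at -2.55 ± 0.21 (adjusted p = 7.28e-08). A second, dimmer Ccl6 probe set gave -0.98 in inguinal cultures (0.0624) and -0.86 for the interaction (0.172), neither called. The leukocyte marker sum was highest in the same group, and its part in the Ccl6 reading was not tested.

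The 250 bases before the start of Ccl9 and of Ccl6 are shown because these neighbours lie on the same strand and had opposite GFP differences in epididymal cultures. They are RefSeq sequences on GRCm38.p6, written 5' to 3' along the minus strand, at chr11:83578637-83578886 for Ccl9 and chr11:83593088-83593337 for Ccl6. Capitals mark matches, on either strand, to 4 motifs: kappaB (GGG, any 3 bases, TTCC), the TATA box (TATAAA), that of early B-cell factors (CCC, any 2 bases, GGG) and that of interferon regulatory factors (GAAA, any 2 bases, GAAA).
Ccl9: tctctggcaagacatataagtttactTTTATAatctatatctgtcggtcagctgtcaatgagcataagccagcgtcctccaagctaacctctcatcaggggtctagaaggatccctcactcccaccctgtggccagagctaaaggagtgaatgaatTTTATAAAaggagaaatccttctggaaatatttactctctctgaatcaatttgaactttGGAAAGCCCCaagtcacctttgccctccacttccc
Ccl6: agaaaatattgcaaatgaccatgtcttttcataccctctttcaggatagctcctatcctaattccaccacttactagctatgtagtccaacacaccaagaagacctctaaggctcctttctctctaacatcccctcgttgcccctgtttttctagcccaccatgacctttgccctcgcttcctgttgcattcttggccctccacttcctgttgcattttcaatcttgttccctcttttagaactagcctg
The Ccl9 window held a kappaB match on the opposite strand 35 bases before the start and TATA matches 224, 94 and 92 bases before it, the last pair overlapping. The Ccl6 window held none of the 4 motifs, which says only that those letters are not in it.

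Ccl17 and Ccl22, which share the receptor Ccr4 of T helper and regulatory T cells, did not follow each other. Ccl17 read 269, 445 and 252 in inguinal GFP+, 419, 382 and 366 in inguinal GFP-, 522, 423 and 458 in epididymal GFP+ and 96.2, 94.5 and 85.2 in epididymal GFP- arrays. The last group lay far below the other 9 arrays. The epididymal GFP difference was 2.16 ± 0.16 (adjusted p = 1.39e-08), the inguinal one -0.30 ± 0.16 (adjusted p = 0.285, and 0.00462 without inguinal GFP+ replicate 2), and the interaction -2.46 ± 0.23 (adjusted p = 3.16e-07). The depot difference in GFP+ cells, -0.56 ± 0.16 at adjusted p = 0.00935, reached 0.0523 without inguinal GFP+ replicate 3, while that in GFP- cells was 1.91 ± 0.16 (adjusted p = 4.31e-08).

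Ccl22 read 89.9, 107 and 101 in epididymal GFP+ and 74.1, 92.2 and 149 in epididymal GFP- arrays, against 53.5, 34.7 and 54.7 in inguinal GFP+ and 50.9, 54.7 and 18.5 in inguinal GFP- arrays. All inguinal arrays were below background and below every epididymal array. Ccl22 was at least 1.42-fold higher in epididymal GFP+ cells (adjusted p = 0.0146, and 0.06 without inguinal GFP+ replicate 2 or 0.0647 with quantile normalization) and at least 1.61-fold higher in epididymal GFP- cells (adjusted p = 0.00277). Its GFP differences were 0.20 ± 0.27 and -0.026 ± 0.27 in inguinal and epididymal cultures (adjusted p = 0.732 and 0.959).

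Ccl20, the ligand of Ccr6 on dendritic cells and lymphocytes, also divided by depot. It read 74.2, 76.5 and 43.2 in inguinal GFP+ and 71.9, 74.2 and 94.6 in inguinal GFP- arrays, against 106, 173 and 144 in epididymal GFP+ and 142, 167 and 171 in epididymal GFP- arrays. The depots did not overlap, and the inguinal GFP+ mean was below background by a narrow margin. Epididymal GFP+ cells were at least 1.92-fold above inguinal GFP+ cells (adjusted p = 0.000778), and in GFP- cells the inguinal minus epididymal difference was -0.88 ± 0.20 (adjusted p = 0.00147). The GFP differences were -0.28 ± 0.20 and -0.18 ± 0.20 (adjusted p = 0.461 and 0.527).

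Ccl25, known for guiding Ccr9-bearing T cells in thymus and gut, read 251, 275 and 232 in inguinal GFP+, 202, 191 and 167 in inguinal GFP-, 136, 146 and 113 in epididymal GFP+ and 142, 189 and 145 in epididymal GFP- arrays. The inguinal GFP+ arrays were above all others. The depot difference in GFP+ cells was 0.86 ± 0.14 (adjusted p = 7.69e-05). The inguinal GFP difference of 0.41 ± 0.14 missed the threshold (adjusted p = 0.0698), passing at 0.0422 with median centring and 0.0456 with weakly detected genes left out, and the interaction of 0.64 ± 0.20 was called at 0.0173 and reached 0.0502 without epididymal GFP- replicate 2.

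Ccl27a, a skin-homing ligand of Ccr10, was highest in epididymal GFP- arrays, which read 281, 297 and 306 against 157, 159 and 179 in epididymal GFP+ arrays. The inguinal arrays read 169.7, 175 and 203 in GFP+ and 206, 208 and 193 in GFP- cells and overlapped. The epididymal GFP difference was -0.78 ± 0.11 (adjusted p = 1.66e-05), the inguinal one -0.14 ± 0.11 (adjusted p = 0.49) and the interaction 0.64 ± 0.15 (adjusted p = 0.00333). In GFP- cells the inguinal minus epididymal difference was -0.51 ± 0.11 (adjusted p = 0.000751). Its probe set is of the type that may also bind related transcripts. 

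Ccl4, a product of activated macrophages and T cells, read 141, 103 and 78.5 in epididymal GFP+, 98.8, 54.7 and 93.2 in epididymal GFP-, 50.7, 53.6 and 74.2 in inguinal GFP+ and 26.9, 53.7 and 75.1 in inguinal GFP- arrays. The epididymal GFP+ arrays lay just above the inguinal GFP+ arrays. It was called in 1 comparison, at least 1.498-fold higher in epididymal than in inguinal GFP+ cells (adjusted p = 0.0474). That call was lost in 13 of 21 settings with adjusted p from 0.0526 to 0.193, among them the removal of inguinal GFP+ replicate 1 or 2, epididymal GFP+ replicate 1 or 2, inguinal GFP- replicate 2 and epididymal GFP- replicate 1 or 3.

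Several of these genes are direct neighbours in the RefSeq annotation of GRCm38.p6, with no other coding gene between them. Ccl2, Ccl7, Ccl11, Ccl12, Ccl8 and Ccl1 form a run of 6 and Ccl5, Ccl9, Ccl6, Ccl3 and Ccl4 a run of 5. Along the first run the inguinal over epididymal difference in GFP+ cells was 1.32 ± 0.069 for Ccl2, 2.15 ± 0.064 for Ccl7 and 3.02 ± 0.16 for Ccl8, while Ccl11 gave -0.13 ± 0.30 and was not called, and Ccl12 was below background in both groups. In GFP- cells the difference was -0.87 ± 0.069 for Ccl2 and 1.83 ± 0.064 for Ccl7, and inguinal cells were at least 3.76-fold higher for Ccl8 and at least 1.11-fold higher for Ccl12, while both means of Ccl11 were below background. Ccl7 and Ccl8 thus kept their sign in both fractions, and Ccl2, next to Ccl7, did not. Ccl1, at the end of the run, was near background in all groups. In the second run Ccl9 and Ccl6 were both lower in inguinal GFP+ and both higher in inguinal GFP- cells, beside Ccl3 and Ccl5 near background. The Ccl6 call in GFP+ cells (adjusted p = 0.0074) missed at 0.101 with quantile normalization and 0.111 when its probe sets were averaged. The second, dimmer Ccl6 probe set gave -0.26 in GFP+ (0.546) and 0.60 in GFP- cells (0.129), neither called. Ccl4, at the end of this run, was called lower in inguinal GFP+ cells (adjusted p = 0.0474), a call lost in 13 of 21 settings, and was not called in GFP- cells (0.0977). Ccl22, Cx3cl1 and Ccl17 are also direct neighbours, and in GFP- cells Ccl22 was at least 1.61-fold higher in epididymal cultures, Ccl17 differed by 1.91 ± 0.16 towards inguinal cultures, and Cx3cl1, at -0.075 ± 0.10, was not called. A dim Cx3cl1 probe set, with means of 7.07 in inguinal and 75.3 in epididymal GFP- cells, gave -1.86 (adjusted p = 0.0132). The remaining Cx3cl1 probe set gave 0.52 (0.132).

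**Figure D4:**
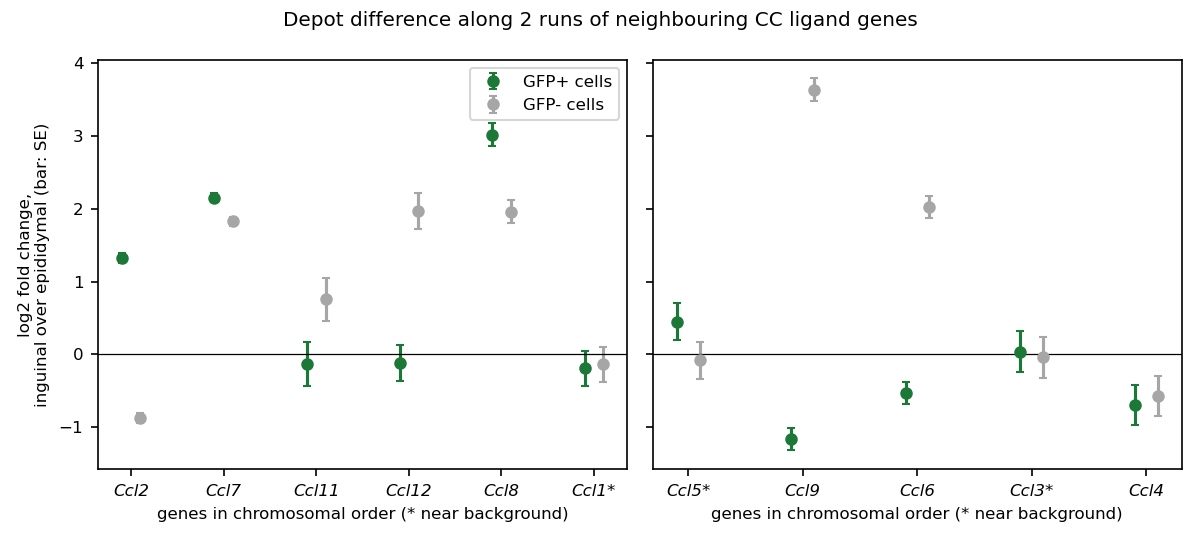
Log2 difference of inguinal over epididymal cells, with its standard error, for the genes of 2 runs of neighbouring CC ligand genes in chromosomal order, in GFP+ (green) and GFP- (grey) cells from 3 arrays per group. The values are fitted from measured signals, so those of Ccl8 and Ccl12 in GFP- cells, where the epididymal mean was below background, and of Ccl11 in GFP- and Ccl12 in GFP+ cells, where both means were, have no exact size. Ccl7 and Ccl8 lie above 0 in both fractions, Ccl2 lies at 1.32 and -0.87, and Ccl9 at -1.16 and 3.63.

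Among the CXC ligands, Cxcl14 and Cxcl12 gave the clearest patterns. Cxcl14, a chemokine of epithelia and stromal fibroblasts whose receptor is not settled, read 8943, 7809 and 9233 in inguinal GFP+, 9031, 9083 and 9336 in inguinal GFP- and 7567, 7401 and 7639 in epididymal GFP+ arrays. The epididymal GFP- arrays read 302, 407 and 374, far below the other 9. The epididymal GFP difference was 4.34 ± 0.079 (adjusted p = 3.85e-16), the inguinal one -0.083 ± 0.079 (adjusted p = 0.6, 95% confidence interval -0.25 to 0.085) and the interaction -4.42 ± 0.11 (adjusted p = 5.56e-14). In GFP- cells the depots differed by 4.61 ± 0.079 (adjusted p = 9.84e-17). In GFP+ cells they differed by 0.20 ± 0.079, a call at 0.0477 that 13 of 22 settings ended with adjusted p from 0.0518 to 0.546. Of the 12 arrays, removal of any but inguinal GFP+ replicate 2 and epididymal GFP- replicates 1 and 2 ended it. A second Cxcl14 probe set gave 4.12 for the epididymal GFP difference and -4.34 for the interaction.

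Cxcl12, the ligand of Cxcr4 that holds haematopoietic and other progenitors in their niches, ran the other way. It read 7832, 7989 and 8085 in epididymal GFP- and 4377, 5069.8 and 4751 in epididymal GFP+ arrays, against 2565, 2039.8 and 2899.9 in inguinal GFP+ and 2099, 2121 and 2374 in inguinal GFP- arrays. The epididymal groups were above both inguinal groups and apart from each other, and the inguinal groups overlapped. The epididymal GFP difference was -0.75 ± 0.091 (adjusted p = 4.14e-06), the inguinal one 0.17 ± 0.091 (adjusted p = 0.275, and 0.00278 without inguinal GFP+ replicate 2), and the interaction 0.92 ± 0.13 (adjusted p = 2.81e-05). The depots differed by -0.93 ± 0.091 in GFP+ and -1.85 ± 0.091 in GFP- cells (adjusted p = 4.36e-07 and 4.6e-11). A second, dimmer probe set gave larger differences of the same sign where calls were made, with -1.84 between the epididymal fractions and -3.55 between the depots in GFP- cells. The mesothelial marker sum was highest in the group where Cxcl12 was highest and Cxcl14 and Ccl9 lowest, and its part in these readings was not tested.

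The windows of 250 bases before the starts of both genes are printed because their epididymal GFP differences were opposite, at 4.34 for Cxcl14 and -0.75 for Cxcl12. They come from RefSeq on GRCm38.p6, at chr13:56296552-56296801 on the minus strand for Cxcl14 and chr6:117168285-117168534 on the plus strand for Cxcl12, with capitals for motif matches as above.
Cxcl14: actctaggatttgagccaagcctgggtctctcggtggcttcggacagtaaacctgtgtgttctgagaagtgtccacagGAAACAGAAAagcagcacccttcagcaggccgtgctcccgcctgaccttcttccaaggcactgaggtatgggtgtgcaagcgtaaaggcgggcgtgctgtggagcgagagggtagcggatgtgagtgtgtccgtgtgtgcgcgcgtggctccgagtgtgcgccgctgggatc
Cxcl12: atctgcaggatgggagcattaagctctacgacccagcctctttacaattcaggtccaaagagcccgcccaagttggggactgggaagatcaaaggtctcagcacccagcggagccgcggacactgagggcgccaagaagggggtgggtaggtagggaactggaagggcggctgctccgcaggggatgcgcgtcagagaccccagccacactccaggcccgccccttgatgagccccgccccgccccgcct
The Cxcl14 window held an interferon regulatory factor match 172 bases before the start, and the Cxcl12 window held none of the 4 motifs.

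Cxcl1, Cxcl5 and Cxcl2 act on Cxcr2 and draw neutrophils. Cxcl1 read 431, 457 and 394 in epididymal GFP-, 203, 324 and 262 in epididymal GFP+, 119, 175 and 172 in inguinal GFP- and 91.0, 128 and 130.5 in inguinal GFP+ arrays. All epididymal arrays were above all inguinal ones. The depot difference was -1.07 ± 0.18 in GFP+ and -1.39 ± 0.18 in GFP- cells (adjusted p = 0.000102 and 4.82e-06). The GFP difference was -0.69 ± 0.18 in epididymal cultures (adjusted p = 0.00457) and -0.37 ± 0.18 in inguinal cultures (adjusted p = 0.221), with an interaction of 0.32 ± 0.25 (adjusted p = 0.373). Cxcl5 had the opposite order of depots, at 93.8, 146 and 129 in inguinal GFP- and 73.2, 56.7 and 94.1 in inguinal GFP+ arrays, above background on the mean, against 18.7, 111 and 40.6 in epididymal GFP+ and 8.48, 3.97 and 12.2 in epididymal GFP- arrays. The epididymal GFP+ arrays were widely spread, and epididymal GFP- arrays were the lowest. Inguinal GFP- cells were at least 1.48-fold above epididymal GFP- cells for Cxcl5 (adjusted p = 1.38e-05), and its fitted interaction, with both epididymal means below background, was -2.01 ± 0.50 (adjusted p = 0.00461). The fitted epididymal GFP difference of 1.39 ± 0.35 passed at 0.00412 with both group means below background. Without epididymal GFP+ replicate 2 the depot difference in GFP+ cells, 0.50 ± 0.35 and not called with all arrays, passed at 0.00794.

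Cxcl16, a transmembrane ligand of Cxcr6 that also binds oxidised lipoprotein, read 327, 337 and 331 in inguinal GFP+ and 327, 335 and 378 in inguinal GFP- arrays, against 699, 626 and 685 in epididymal GFP+ and 811, 976 and 947 in epididymal GFP- arrays. The inguinal groups overlapped, and the epididymal groups stood above them and apart from each other. The depot difference was -0.98 ± 0.083 in GFP+ and -1.35 ± 0.083 in GFP- cells (adjusted p = 8.08e-08 and 7.39e-10), and the epididymal GFP difference -0.43 ± 0.083 (adjusted p = 0.00044). The interaction of 0.37 ± 0.12 was called at 0.0203 and missed at 0.0551 without inguinal GFP- replicate 1, 0.0577 without epididymal GFP+ replicate 2, 0.0585 without epididymal GFP- replicate 2 and 0.0537 without epididymal GFP- replicate 3.

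Cxcl13, the Cxcr5 ligand that organises B cell follicles, read 94.6, 68.5 and 82.99 in inguinal GFP+ and 73.0, 63.1 and 75.8 in inguinal GFP- arrays, against 166, 139 and 150.3 in epididymal GFP+ and 131, 148 and 96.3 in epididymal GFP- arrays. Its depots did not overlap, and the inguinal minus epididymal difference was -0.78 ± 0.17 in GFP+ and -0.69 ± 0.17 in GFP- cells (adjusted p = 0.00108 and 0.0024). Cxcl17, a mucosal chemokine, read 43.2, 46.1 and 74.6 in inguinal GFP+, 54.2, 91.1 and 84.3 in inguinal GFP-, 138, 114 and 149 in epididymal GFP+ and 136, 153 and 164 in epididymal GFP- arrays. Here too every epididymal array was above every inguinal array. Cxcl17 was at least 1.85-fold higher in epididymal GFP+ cells (adjusted p = 0.000231), and in GFP- cells the depots differed by -0.87 ± 0.20 (adjusted p = 0.00145). Neither gene was called in a GFP comparison.

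Cxcl1, Cxcl12, Cxcl13, Cxcl16 and Cxcl17, with Ccl20, Ccl22, Ccr6 and Cxcr4, made up the 9 members called lower in inguinal cells of both fractions, and Ccl7, Ccl8, Ccr2 and Cxcl14 were the 4 called higher in both. Of all genes 16% were lower in both and 16.1% higher in both. Ccl2 was higher in inguinal GFP+ and lower in inguinal GFP- cells, a pattern of 2.09% of all genes, and 4 members, Ccl6, Ccl9, Ccl17 and Ccr1, had the reverse pattern of 3.38%. Ccr2 was near background in every group. In GFP+ cells the calls of Ccl22, Ccr2, Ccr6, Cxcr4 and Cxcl14 were each lost without some single array. For Cxcr4, a call at 0.0268, these were inguinal GFP+ replicate 2 (0.155), epididymal GFP+ replicate 1 (0.0781) and epididymal GFP+ replicate 2 (0.0623). For Ccr2, a call at 0.0348, they were inguinal GFP+ replicates 1 (0.101) and 3 (0.0814) and epididymal GFP+ replicates 2 (0.0877) and 3 (0.14).

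Cx3cl1, or fractalkine, is made as a membrane-bound adhesion molecule for cells with Cx3cr1. It read 876, 825 and 868 in inguinal GFP+, 1261, 1133 and 1236 in inguinal GFP-, 1899, 1582 and 1281 in epididymal GFP+ and 1147, 1348 and 1337 in epididymal GFP- arrays. The inguinal GFP+ arrays were below all others and the epididymal groups overlapped. The GFP difference was -0.49 ± 0.10 in inguinal cultures (adjusted p = 0.0042) and 0.30 ± 0.10 in epididymal cultures (adjusted p = 0.0304), with an interaction of -0.79 ± 0.15 (adjusted p = 0.000462). The epididymal call was lost in 7 of 22 settings, among them the removal of epididymal GFP+ replicate 1, epididymal GFP+ replicate 2 or epididymal GFP- replicate 1, with adjusted p from 0.0552 to 0.902. The mean over the 3 Cx3cl1 probe sets, of which the others were dim, ended the inguinal call (adjusted p = 0.426) and the interaction (0.413).

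Of the 16 receptors, 3 (18.8%) were called in each GFP comparison, against 12.6% of all genes for inguinal and 41.9% for epididymal GFP. In each depot comparison 6 (37.5%) were called, against 50.8% in GFP+ and 53.7% in GFP- cells, and receptor group means reached at most 141. Ccr1, a receptor of Ccl6 and Ccl9 on monocytes and neutrophils, read 98.0, 123 and 119 in inguinal GFP- and 31.2, 33.3 and 43.9 in inguinal GFP+ arrays, against 89.3, 103 and 60.3 in epididymal GFP+ and 46.0, 62.8 and 60.2 in epididymal GFP- arrays. Inguinal GFP+ cells were lowest and did not overlap any other group. Ccr1 was at least 1.60-fold higher in inguinal GFP- than inguinal GFP+ cells (fitted log2 difference -1.31 ± 0.20, adjusted p = 0.000208), and the interaction of measured signals was -1.77 ± 0.28 (adjusted p = 9.07e-05). With the mean of both Ccr1 probe sets, of which the other was at background, these became 0.0844 and 0.0678. Between the depots Ccr1 was at least 1.22-fold higher in epididymal GFP+ cells (adjusted p = 0.000913, and 0.319 with the mean of probe sets) and at least 1.39-fold higher in inguinal GFP- cells (0.00163, and 0.0683). The epididymal GFP difference of 0.45 ± 0.20 missed the threshold (adjusted p = 0.0771) and passed at 0.0172 without epididymal GFP+ replicate 3.

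Cx3cr1, the fractalkine receptor of monocytes and tissue macrophages, was above background in inguinal GFP- cells, at 59.1, 64.6 and 64.3, against 21.9, 10.1 and 5.95 in inguinal GFP+, 9.32, 36.3 and 30.1 in epididymal GFP+ and 46.95, 33.2 and 24.1 in epididymal GFP- arrays. Inguinal GFP- arrays exceeded all others. The inguinal difference of -1.50 ± 0.28 was called (adjusted p = 0.00187), but the brighter mean did not exceed the background level of inguinal GFP+ cells, so this is a difference in measured signal and no lower bound above 1-fold can be given. The fitted interaction of -1.15 ± 0.40, with 3 groups below background, called at 0.0361, was lost in 13 of 20 settings with adjusted p up to 0.189. Of the 12 arrays, removal of any but inguinal GFP+ replicate 1, epididymal GFP+ replicate 1 and epididymal GFP- replicate 1 ended it. A second, dim Cx3cr1 probe set gave 0.15 in inguinal cultures (0.783) and 0.10 for the interaction (0.857), neither called.

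Ccr2, the receptor of Ccl2, Ccl7 and Ccl12 on inflammatory monocytes, was near background in all groups, with means of 24.3 in inguinal GFP+, 55.6 in inguinal GFP-, 9.47 in epididymal GFP+ and 7.30 in epididymal GFP- arrays. Its inguinal call (adjusted p = 0.0466) was lost in 14 of 21 settings with adjusted p from 0.0511 to 0.606, including the removal of any of the 6 inguinal arrays, epididymal GFP+ replicate 2 or epididymal GFP- replicate 2 or 3. The other Ccr2 probe sets, also dim, gave -0.047 (0.948) and 0.24 (0.668) in inguinal cultures, neither called. On the brightest probe set of each gene, Ccl6, Ccl12, Ccr1, Ccr2 and Cx3cr1 were all lower in inguinal GFP+ cells. The leukocyte marker sum there was 2456 to 2669 against 11798 to 13883 in GFP- cells, and 12 of 20 markers were called lower and 0 higher. Cx3cl1 was also called lower in inguinal GFP+ cells. Its highest mean, 1587, was in epididymal GFP+ cells, where the marker sum was 3271 to 3349. The part of leukocytes in any of these readings was not tested.

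**Figure D5:**
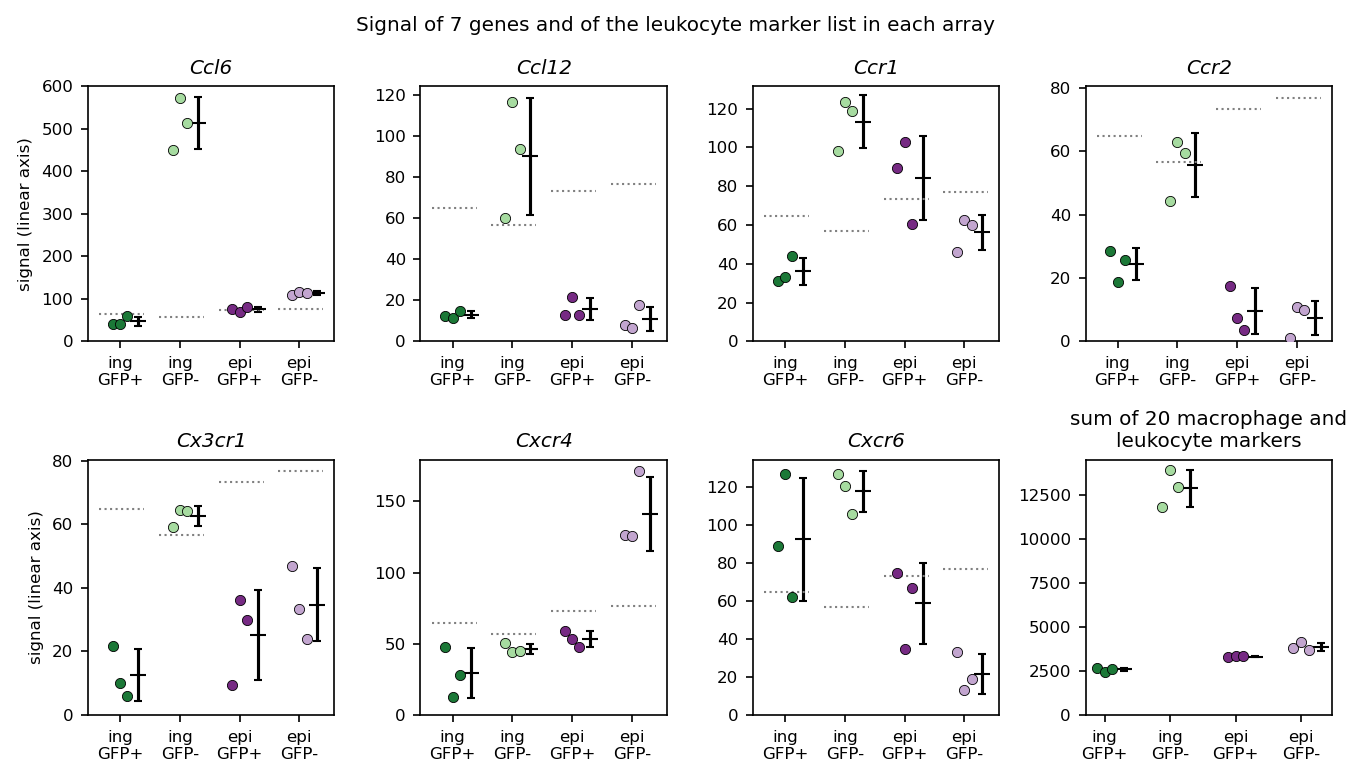
Signal of 7 genes and the summed signal of 20 macrophage and leukocyte markers in each array on linear axes, by group, with the mean and SD of 3 arrays and the background level as a dotted line. Ccl6, Ccl12, Ccr1, Ccr2, Cx3cr1 and the marker sum are highest in inguinal GFP- cells, while Cxcr4 is highest in epididymal GFP- cells.

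Cxcr4, the receptor of Cxcl12, was above background in epididymal GFP- cells, where it read 126, 126 and 171. It read 58.7, 53.7 and 47.7 in epididymal GFP+, 47.5, 12.6 and 28.2 in inguinal GFP+ and 50.5, 44.3 and 44.9 in inguinal GFP- arrays, all lower. Epididymal GFP- cells were at least 1.74-fold above epididymal GFP+ cells (adjusted p = 0.000806) and at least 2.14-fold above inguinal GFP- cells (adjusted p = 0.000202). Cxcl12 also had its highest mean in that group, which is the one with the highest mesothelial marker sum; which cells of the cultures held either RNA was not measured. The fitted interaction for Cxcr4, 0.64 ± 0.34, did not pass (adjusted p = 0.175) unless inguinal GFP+ replicate 2 was left out (0.0184) or a pseudocount of 64 was used (0.0301). The inguinal GFP difference of -0.53 ± 0.24 passed at 0.032 without inguinal GFP+ replicate 1.

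Cxcr6, the receptor of Cxcl16 on T and natural killer cells, was above background in the inguinal groups, where Cxcl16 was lower. It read 127, 120.3 and 106 in inguinal GFP- and 88.8, 127 and 62.1 in inguinal GFP+ arrays, which overlapped, against 74.9, 34.7 and 67.0 in epididymal GFP+ and 33.3, 12.9 and 18.8 in epididymal GFP- arrays, whose means were below background. Inguinal GFP- cells were at least 1.44-fold above epididymal GFP- cells (adjusted p = 1.72e-05). The fitted interaction was -1.32 ± 0.38 (adjusted p = 0.0114), and a second probe set gave -0.59 (0.246). Between the epididymal fractions a difference of 0.98 ± 0.27 was called (adjusted p = 0.00668) with both means below background, and the second probe set gave 0.33 (0.345). The depot difference in GFP+ cells was 0.54 ± 0.27 (adjusted p = 0.107), and 1.32 (0.000426) on the second probe set.

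Ccr6, the Ccl20 receptor, read 78.4, 89.0 and 104 in epididymal GFP-, 90.3, 35.7 and 68.8 in epididymal GFP+, 31.8, 59.0 and 29.6 in inguinal GFP- and 28.2, 24.7 and 35.6 in inguinal GFP+ arrays. As for Ccl20, the epididymal arrays were above the inguinal ones of the same fraction. Ccr6 was at least 1.46-fold higher in epididymal than inguinal GFP- cells (adjusted p = 0.00537), while in GFP+ cells, both near background, the call at 0.0206 was lost on removal of either of inguinal GFP+ replicates 1 and 2 or of epididymal GFP+ replicates 1 and 3, with adjusted p up to 0.113.

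Calls also fell on 4 more genes near background in all groups. Ccr7, which guides dendritic and T cells to lymph nodes, had an interaction of -1.61 ± 0.41 (adjusted p = 0.00552) and an epididymal GFP difference of 1.03 ± 0.29 (adjusted p = 0.00868) that reached 0.0503 without epididymal GFP+ replicate 2. Ccl5 was lower in epididymal GFP+ cells (adjusted p = 0.0422), a call lost with adjusted p up to 0.196 on removal of any of epididymal GFP+ replicates 2 and 3, epididymal GFP- replicates 1 and 2 and inguinal GFP- replicates 1 and 3. Ccr1l1 was called between the depots in GFP+ cells (adjusted p = 0.0355) and Ccr9, the Ccl25 receptor, in GFP- cells (adjusted p = 0.0234). The first was lost without either of inguinal GFP+ replicates 1 and 2 or of epididymal GFP+ replicates 2 and 3 (up to 0.0995), and the second without inguinal GFP- replicate 1 or epididymal GFP- replicate 1 or 2 (up to 0.14). With both groups under the background level, these are differences in measured signal, which bound no fold.

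The RefSeq promoter table used here matched 34 of the 47 genes, with 38 windows of 250 bases before the start, which were searched on both strands. The kappaB motif, the site read by NF-kappaB in many inflammatory promoters, matched in 8 windows (21.1%), against 4.65% of 32851 windows of all genes. The 8 genes were Ccl1, Ccl9, Ccl20, Cxcl1, Cxcl2, Cxcl10, Ccr3 and Ccr6. TATAAA matched in 10 windows (26.3%) against 12.4%, the early B-cell factor motif in 4 (10.5%) against 11.8%, and the interferon regulatory factor motif in 2 (5.26%), those of Cxcl10 and Cxcl14, against 2.98%. Of the 8 genes with a kappaB match, Ccl9 was higher in epididymal GFP+ cells, Cxcl1 was lower there, and 6 were called in neither GFP comparison. A match is a description of letters and shows no binding.

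Genes that work around the chemokines were counted from 3 lists, beside 12.6% of all genes called for inguinal and 41.9% for epididymal GFP. Of 21 other chemokine system genes, 2 were called higher and 4 lower in inguinal GFP+ cells, and 5 higher and 2 lower in epididymal GFP+ cells. Rarres2, the precursor of the attractant chemerin, was higher in GFP+ cells of both depots, with means of 1886 against 711 in inguinal and 1639 against 737 in epididymal cultures (log2 differences 1.38 and 1.14, adjusted p = 9.4e-09 and 5.77e-09). Sdc3, a heparan sulphate proteoglycan, was higher in epididymal GFP+ cells by 1.08 (adjusted p = 3.39e-11), as was Sdc1, of the same family, by 0.44 (2.08e-09), which was lower in inguinal GFP+ cells (-0.26, adjusted p = 8.01e-06). Mif, a cytokine that can act on chemokine receptors, was higher in epididymal GFP+ cells by 0.42 (8.02e-09). Dpp4, a protease that cleaves several chemokines and is named here after its values were seen, went the other way, with means of 127 in epididymal GFP+ and 773 in epididymal GFP- cells (-2.47, adjusted p = 4.73e-07).

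Of 24 measured genes of the pathways that induce chemokines, 1 was called higher and 5 lower in inguinal GFP+ cells, and 8 higher and 7 lower in epididymal GFP+ cells. Il6, a cytokine often induced beside them, had a mean of 4340.2 in epididymal GFP+ against 1663 in GFP- cells (1.38, adjusted p = 2.07e-11) and 1540.1 against 1884 in inguinal cultures (-0.29, adjusted p = 0.00451). Nfkbiz, a nuclear regulator of NF-kappaB targets, was lower in epididymal GFP+ cells (log2 difference -1.04, adjusted p = 2.08e-11). Il1r1, the receptor of interleukin 1, turned its sign as Ccl2 did, at 0.48 in inguinal and -1.55 in epididymal cultures (adjusted p = 0.0194 and 3.83e-08, interaction 2.02 at 1.68e-07). Tnfrsf1b, a receptor of tumour necrosis factor, had the opposite signs, -0.42 and 1.18 (adjusted p = 0.00292 and 6.82e-09).

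Of 17 measured genes that relay or end receptor signals, 3 were called higher and 3 lower in inguinal GFP+ cells, and 9 higher and 1 lower in epididymal GFP+ cells. Grk5, a kinase that desensitises such receptors, was higher in epididymal GFP+ cells by 1.63 (adjusted p = 2.8e-13). Rgs16, which shortens G protein signals, was higher in GFP+ cells by 0.71 in inguinal and 1.06 in epididymal cultures (adjusted p = 9.37e-07 and 6.84e-10). The G protein subunits Gng2 and Gnb1 were higher in epididymal GFP+ cells by 1.03 and 0.27 (adjusted p = 3.69e-07 and 9.28e-08).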

How the data were processed

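RNA of 12 samples in 4 groups of 3 was hybridised to Affymetrix arrays after oligo-dT T7 amplification and biotin labelling, per the labels' protocols. The deposited values are linear signal intensities per probe set, used as the authors deposited them; the summarising and scaling method is not given in the sources used here. Of 22626 probe sets, 20380 had 1 gene symbol in the platform annotation, 691 had several and 1555 had none. Probe sets with several or none were left out, among them 4 of the chemokine family. The brightest probe set of each of 12393 genes was kept; of the 47 members, 14 had several. A linear model of log2(signal + 16) over all 12 arrays was run in R 4.3.3 (limma 3.58.1, eBayes with a variance trend), with Benjamini-Hochberg adjustment over all genes at 0.05. Adding 16 understates the differences of dim genes. The script was tested on simulated data. Each ± after a log2 difference is a standard error from this fit with 3 arrays per group. A gene was near background in a group where its mean log2 value was below the 95th percentile of 66 olfactory, vomeronasal and taste receptor genes. A fold given as "at least" sets the brighter group's mean against that level in the dimmer group, on the log2(signal + 16) scale. Values in every array are given for members above background in at least 1 group, and up to 4 genes of each pathway list are named, those with the smallest adjusted p in either GFP comparison. Alternatives were scaling, pseudocount, filter, probe set rule, variance trend, groups in the fit, a replicate block and removal of each array; fitting every probe set was added after seeing the data. The members, gene lists and marker lists were chosen with earlier results of these data known.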

Additional observations from a re-analysis of the deposited data

Results flagged for a closer look

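For 18 of the 47 genes the GFP difference in inguinal cultures differed from that in epididymal cultures by the interaction test of limma (Benjamini-Hochberg adjusted p under 0.05), where 34.8% of all genes did. Of the ligands, the interaction was below 0 for Ccl9 at -4.79, Cxcl14 at -4.42, Ccl6 at -2.55, Ccl17 at -2.46, Ccl12 at -2.09, Cxcl5 at -2.01 and Cx3cl1 at -0.79 (log2). It was above 0 for Ccl2 at 2.20, Ccl8 at 1.06, Cxcl12 at 0.92, Ccl25 at 0.64, Ccl27a at 0.64, Cxcl16 at 0.37 and Ccl7 at 0.33. All 4 receptors with a call had values below 0, with Ccr1 at -1.77, Ccr7 at -1.61, Cxcr6 at -1.32 and Cx3cr1 at -1.15. For 8 of the 18 these are differences in measured signal with no exact size, since group means lay below background: 1 group for Ccl6 and Ccl8, 2 for Ccr1, Cxcl5 and Cxcr6, 3 for Ccl12 and Cx3cr1, and all 4 for Ccr7. Single arrays or the mean of all probe sets ended the calls of Ccl25, Cxcl16, Cx3cr1, Ccr1 and Cx3cl1, as given with each gene above.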

How the results depend on the processing

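Over 155 pairs of a gene and a comparison (31 genes, the 26 above background and 5 near background with a call), 93 were called, 67 of these kept their call in every setting run and 26 lost it in some setting, while 16 uncalled pairs passed in some setting. Of 3309 alternative values no called difference reversed its sign, and 31 uncalled differences changed sign. Leaving out the weakly detected genes, the 30% with the lowest means, kept 17 members in the fit. Of these 17, 15 were called between the depots in GFP+ cells and 15 in GFP- cells. Over all genes kept, 5870 and 6209 were called, against 6292 and 6656 of all 12393 genes in the main fit. The filtered fit held fewer genes, so its lower counts do not mean a lower share called. The share of kept genes called was not counted, so the 15 of 17 cannot be set against the shares of the main fit. The members' median depot difference in GFP+ cells was -0.18 with quantile normalization, -0.53 with a pseudocount of 1 and -0.12 with a pseudocount of 64, and in GFP- cells -0.20 with a pseudocount of 1; the cause was not tested. Leaving out each array in turn gave 9 to 12 members called for inguinal GFP, 14 to 18 for epididymal GFP, 18 to 23 and 23 to 25 for the depots in GFP+ and GFP- cells, and 16 to 18 for the interaction. Calls over all genes moved too, from 1158 to 1845 for inguinal GFP and from 4733 to 5313 for epididymal GFP. They ran from 5698 to 6290 and from 6088 to 6781 for the depots in GFP+ and GFP- cells. For the interaction they ran from 3897 to 4317. Arrays with the same replicate number showed no clear shared deviation, with correlations of deviations from -0.057 to 0.044. No label says whether such arrays came from the same culture. With the replicate block 10, 18, 21, 24 and 17 members were called, and 1528, 5154, 6245, 6628 and 4220 of all genes. The block let the inguinal Ccl25 difference pass (0.0437). Median centring changed the split of all genes in the interaction to 2704 above and 1772 below 0. Signals near background limit 21 genes, or 22 by the other background level, to upper bounds.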
